A study of Mus musculus with 16 samples.

Results

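The Schlafen family is a group of related mouse genes that lie side by side on chromosome 11 and are known as targets of interferon. Its members were chosen by name, as the protein-coding genes whose symbols begin with Slfn, and 7 of the 13085 entries of the deposited table are members. They are Slfn1, Slfn2, Slfn3, Slfn4, Slfn5, Slfn8 and Slfn9. Slfn10-ps, a transcribed pseudogene of the same cluster, is also listed and is described beside them, while Slfn14 was not analysed here.

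Schlafen proteins share an N-terminal core related to the AlbA fold and are sorted by length into a short, an intermediate and a long subgroup. The short proteins, Slfn1 and Slfn2, consist of little more than this core, the intermediate proteins Slfn3 and Slfn4 carry a linker domain after it, and the long proteins Slfn5, Slfn8 and Slfn9 add a C-terminal region that resembles an RNA helicase and a signal for import into the nucleus. The family was first described in developing thymocytes as genes that restrain growth, and its name comes from the German word for sleeping. Slfn2 is needed for the quiescence of T cells and monocytes and shields transfer RNA from cleavage, Slfn4 was described in macrophages and other myeloid cells, and the long members include relatives of human proteins that cleave transfer RNA or restrict viruses.

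The study cultured monocytes of C57BL/6 mice that were NFAM1+/+ or NFAM1-/-, the latter made by Cas9 deletion of exons 2 and 3 of Nfam1, which encodes an activating receptor of immune cells. Cells were left unstimulated or were given mouse IFN-γ for 1 h and then MegaCD40L (1 ug/mL), a multimeric form of CD40 ligand. They were collected 6 or 24 h later. The IFN-γ dose was 100 ug/mL by the labels and by the methods for stimulating mouse monocytes. The methods for RNA sequencing name a far lower dose, in ng/mL, and which dose applies to the libraries is not stated. PolyA RNA was sequenced without strand information as paired reads of 101 nt, with 2 libraries in each of 8 groups (2 genotypes, 2 treatments, 2 times) and 48295939 to 88514341 reads per library on the listed genes. The labels give no age or sex, and the cell type tag names monocytes of peripheral blood while the methods describe isolation from bone marrow with a commercial enrichment kit for monocytes. The treatment text of the samples also describes nucleofection of human blood monocytes, and which of these descriptions applies to the libraries is not stated.

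By title, libraries 1 and 2 were unstimulated NFAM1+/+ cells at 6 h and libraries 3 and 4 the NFAM1-/- cells beside them. Libraries 26 and 10 were the stimulated NFAM1+/+ cells at 6 h, and libraries 11 and 12 the stimulated NFAM1-/- cells. At 24 h the unstimulated libraries were 44 and 45 (NFAM1+/+) and 43 and 46 (NFAM1-/-), and the stimulated libraries were 56 and 57 (NFAM1+/+) and 55 and 58 (NFAM1-/-). In 4 libraries of 24 h, numbers 44, 46, 56 and 58, the genotype tag names the other genotype than the title, so the 24 h genotype comparisons are given by title and again by tag. The comparisons of stimulus and of time average over both genotypes, with 4 libraries on each side. A figure legend of the study names 4 NFAM1+/+ and 6 NFAM1-/- mice as donors, but which mouse, or pool of mice, gave which library is not stated, so the p-values measure the spread between these libraries.

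Levels are in CPM, the read count of a gene relative to the scaled library size that the authors used, and differences are log2 fold changes from limma with their standard errors (SE). A gene was called when its fold change was at least 2 and its Benjamini-Hochberg adjusted p over 12782 tested genes was under 0.05. All 7 members were at 1 CPM or more in all 16 libraries, the lowest value being 1.03 CPM (64 reads) of Slfn3 in library 2.

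Nfam1 itself stood at 432 and 408 CPM in the unstimulated NFAM1+/+ libraries at 6 h and at 299 and 321 CPM in the NFAM1-/- libraries. Its levels with stimulus at 6 h were 133 and 129 CPM (NFAM1+/+) and 135 and 127 CPM (NFAM1-/-). At 24 h they were 463 and 495 against 441 and 391 CPM without stimulus and 271 and 252 against 201 and 223 CPM with it. Reads of Nfam1 thus remained in each library labelled NFAM1-/-, and the differences between genotypes were -0.44 (adjusted p 0.0514), -0.01 (0.979), -0.20 (0.348) and -0.30 (0.0676) in that order, none of them called. By tag the differences at 24 h were 0.04 without and -0.02 with stimulus (adjusted p 1 for both), and on the libraries whose labels match, 1 against 1, they were -0.17 and -0.32. The table gives 1 value per gene, in which reads of the exons outside the deletion count, so these levels alone do not settle which label is right.

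Some values at 24 h differ by the label used. By title the Nfam1 levels of the genotypes do not overlap at 24 h with or without stimulus, and by tag they overlap in both. Limma called 37 genes by title and 2 by tag at 24 h without stimulus, and 74 and 3 with it. Of 20 CD40 and NF-kB response genes, a list set beside the labels after its values were seen, all 20 were negative for genotype at 6 h without stimulus (median -0.31, all genes 0.01) and 17 with it (median -0.26). At 24 h without stimulus 19 were negative by title (median -0.44) and 3 by tag (median 0.15), and with stimulus 13 were negative by either label (median -0.03). The genes of a list vary together, there are 2 libraries a group, and which label is right was not tested.

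Markers of monocytes were abundant in all libraries: all 10 of the list were measured, and their summed level was 22436 to 24586 CPM without and 8319 to 10348 CPM with stimulus at 6 h, and 26572 to 30533 and 8254 to 11533 CPM at 24 h. Lyz2, the lysozyme of myeloid cells, was the most abundant of them, at a mean of 16598, 3518, 21921 and 6195 CPM. At 6 h the stimulus called 3 of the 10 higher and 6 lower, with Fcgr1 at 4.47 and Ly6c2 at 2.53 on one side and Cx3cr1 at -4.19 and Cd14 at -3.50 on the other. In bulk RNA, fewer cells of a type and less RNA per cell cannot be told apart.

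On chromosome 11 the genes run in the order Slfn5, Slfn9, Slfn8, Slfn10-ps, Slfn2, Slfn1, Slfn4 and Slfn3, with the long members at one end and the intermediate members at the other. Slfn9, Slfn8 and Slfn10-ps lie on the minus strand and the other 5 genes on the plus strand. The windows from 250 bases before to 50 bases after each start were taken from RefSeq (build GRCm38.p6), where all 7 members were matched, while the deposited values were made on GRCm39 by the submitters' notes. Each window was searched on both strands for 3 motifs: the interferon-stimulated response element as GAAANNGAAA, the gamma-activated site as TTCNNNGAA and an NF-kB site as GGGNNTTTCC.

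The first of these was in the windows of Slfn5, Slfn9 and Slfn8, which are the 3 long members, and in none of the other 4. Of 32851 windows of the same length, 3.44% hold it, and of 27025 genes 3.99% do. The gamma-activated site (8.30% of windows) and the NF-kB site (1.63%) were in no member's window, so no match overlapped a match of another motif. The same 3 members held the first motif when only the 250 bases before the start were searched, where 2.98% of windows hold it. A match is a description of the letters in a window.

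Because the match was found in the long members alone, 200 bases around each match are printed from 5′ to 3′ on the strand of the gene, with the match in capitals. They lie at chr11:82951902-82952101 on the plus strand (Slfn5), chr11:82991831-82992030 on the minus strand (Slfn9) and chr11:83020811-83021010 on the minus strand (Slfn8), all in GRCm38.p6. In Slfn9 and Slfn8 the capitals are the motif read on the opposite strand.
Slfn5: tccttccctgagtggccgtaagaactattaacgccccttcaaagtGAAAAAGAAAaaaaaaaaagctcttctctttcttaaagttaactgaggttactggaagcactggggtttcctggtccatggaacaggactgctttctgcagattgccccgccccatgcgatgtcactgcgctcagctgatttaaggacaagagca
Slfn9: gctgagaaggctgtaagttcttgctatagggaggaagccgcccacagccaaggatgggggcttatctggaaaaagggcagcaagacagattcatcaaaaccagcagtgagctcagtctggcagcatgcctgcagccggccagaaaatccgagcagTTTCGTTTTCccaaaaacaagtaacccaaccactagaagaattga
Slfn8: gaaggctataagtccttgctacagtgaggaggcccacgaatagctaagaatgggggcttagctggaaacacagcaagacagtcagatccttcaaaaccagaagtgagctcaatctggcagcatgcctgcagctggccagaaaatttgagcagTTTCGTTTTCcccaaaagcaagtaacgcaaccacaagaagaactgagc

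The capitals lie 155 to 146 bases before the start of Slfn5, in a stretch rich in A, 45 to 36 bases before that of Slfn9 and 48 to 39 bases before that of Slfn8. A second window of Slfn8, for another start, holds the same match 136 to 127 bases before it. Over 300 bases the windows of Slfn9 and Slfn8 differ by 58 single-base edits, and each other pair of members differs by at least 154.

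With IFN-γ plus CD40L for 6 h, each of the 7 Schlafen genes was far above its unstimulated level. All 7 were called higher, beside 19.1% of the 12782 genes tested. In each of the 7 the 4 stimulated libraries were above the 4 unstimulated ones. Splits of this kind, here and at 24 h, were not counted over all genes. In limma 10147 of the genes tested were at an unadjusted p under 0.05 for the stimulus at 6 h. The rise ran from 6.04-fold in Slfn2 to 82.1-fold in Slfn1. Cd40, the receptor of the ligand used, was at 46.1 to 67.3 CPM without and 1403 to 1550 CPM with stimulus, a difference of 4.62 (SE 0.07).

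Slfn1, a short member, was at 13.1, 9.98, 15.3 and 10.3 CPM in libraries 1 to 4 and at 1036, 899, 984 and 1016 CPM in the stimulated libraries 26, 10, 11 and 12. The stimulated values lie close together, and the lowest of them is 58.9 times the highest unstimulated value. Its log2 difference of 6.36 (SE 0.16, adjusted p 1.29e-13) ranks 240 from the top of the genes tested and is the largest of the family.

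Slfn2, the short member tied to quiescence, was at 340, 382, 327 and 321 CPM without and at 2287, 1915, 1961 and 2104 CPM with stimulus. Its rise was the smallest of the family, and its lowest stimulated value is 5.01 times its highest unstimulated one. The difference was 2.59 (SE 0.07, adjusted p 4.19e-13).

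Slfn3, an intermediate member known from the differentiation of gut epithelium, was at 2.73, 1.03, 1.68 and 1.94 CPM without and at 84.1, 72.2, 77.1 and 69.0 CPM with stimulus. Libraries 1 and 2, which share a genotype, hold its highest and lowest unstimulated values, and all stimulated values are at least 25.3 times above them. The difference was 5.43 (SE 0.26, adjusted p 1.07e-10).

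Slfn4, the intermediate member of myeloid cells, was at 16.4, 12.7, 14.5 and 10.6 CPM without and at 1298, 734, 704 and 756 CPM with stimulus. Library 26 stands above the other 3 stimulated libraries, and all 4 are at least 42.8 times above the unstimulated ones. The difference was 5.98 (SE 0.19, adjusted p 1.12e-12), and 5.77 without library 26.

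Slfn5, the long member at the head of the cluster, was at 42.9, 32.5, 31.0 and 29.1 CPM without and at 2389, 1932, 1854 and 1943 CPM with stimulus. Its difference was 5.91 (SE 0.13, adjusted p 3.42e-14), a rise of 60.2-fold, and the groups are 43.2 times apart at their nearest values. Slfn8, a long member, was at 46.9, 44.3, 42.7 and 42.9 CPM and then at 1398, 1187, 1199 and 1250 CPM. Of the 7, Slfn8 varied least between unstimulated libraries and had the smallest adjusted p, 1.62e-15, with a difference of 4.83 (SE 0.08).

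Slfn9, the long member next to Slfn8, was at 12.9, 10.4, 12.3 and 12.4 CPM without and at 531, 487, 444 and 456 CPM with stimulus. The nearest values of its groups are 34.5 times apart, and the difference was 5.32 (SE 0.11, adjusted p 2.02e-14). Slfn10-ps was at 3.79, 3.23, 2.67 and 3.35 CPM and at 48.7, 32.3, 29.4 and 29.1 CPM, again with library 26 highest, and its difference was 3.40 (adjusted p 3.5e-11). With the authors' scaling, library 26 held the highest stimulated value at 6 h of all 7 members. Relative to total reads, Slfn1 was higher in library 12 (51690 of 64285583 reads) than in library 26 (56868 of 72245473). Among these 4 libraries, library 26 also held the highest summed markers of dendritic cells (96.1 CPM, against 35.5 to 58.3). The same was true of erythroid cells and megakaryocytes (37.3 against 8.20 to 18.8) and of neutrophils (501 against 308 to 474). It held the lowest of monocytes (8319 against 8530 to 10348), and the part of these cells in the Schlafen levels was not tested.

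**Figure D1:**
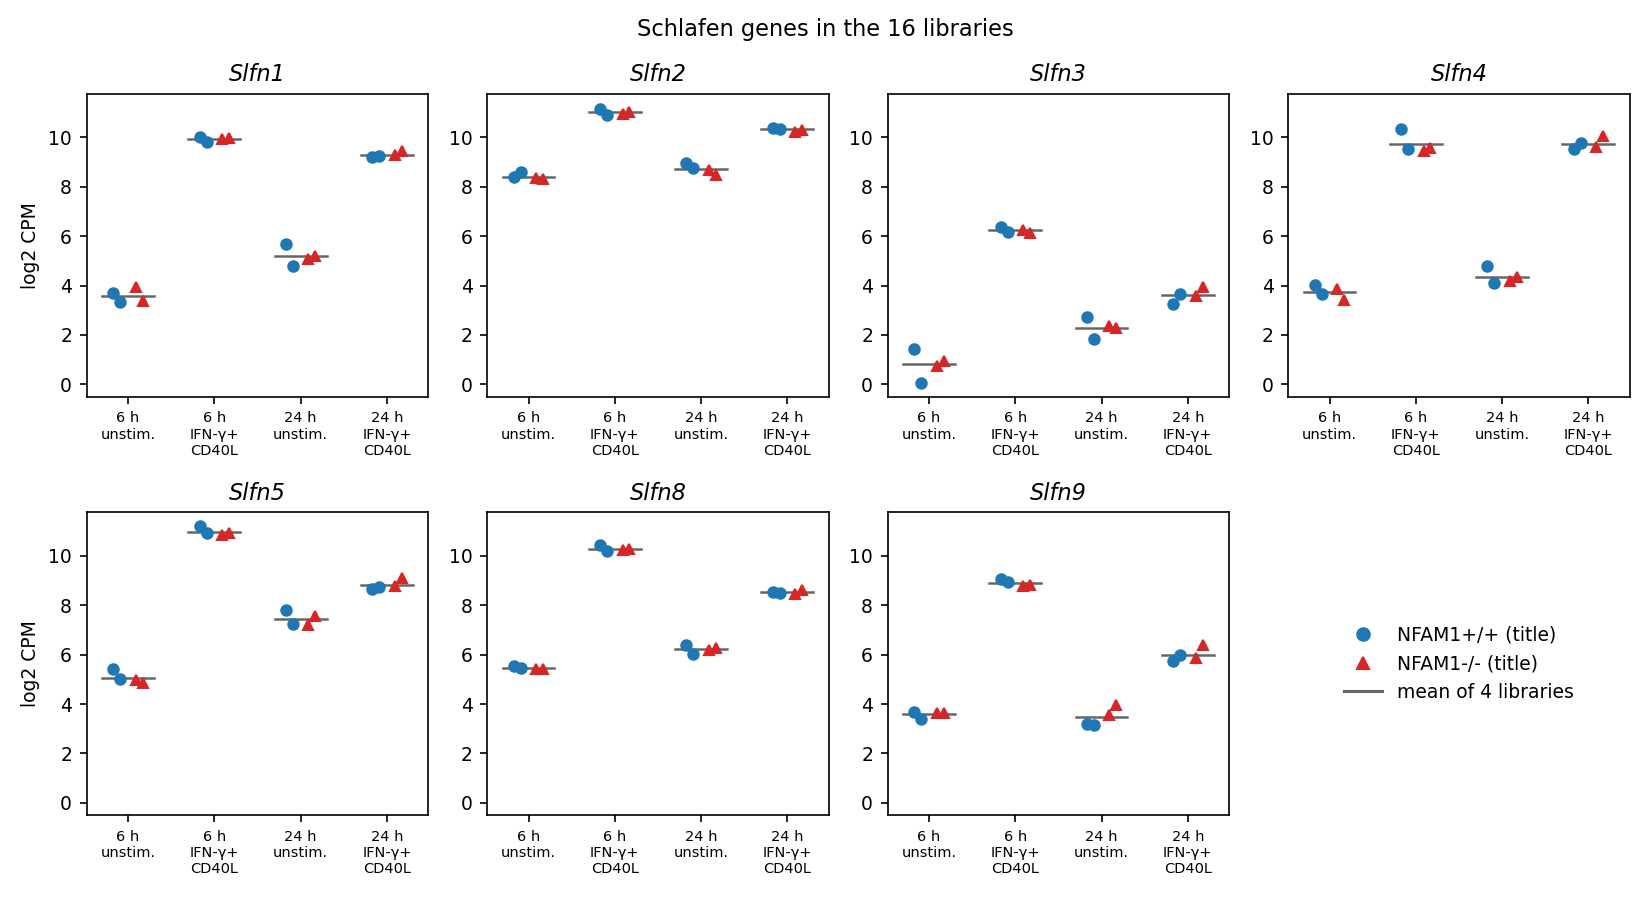
Log2 CPM of the 7 Schlafen genes in the 16 libraries, with 1 point per library by the genotype of its title and a line at the mean of the 4 libraries of each treatment and time. In every panel the stimulated points lie above the unstimulated points of the same time, and Slfn3 and Slfn9 show the widest gap between the stimulated points of 6 h and of 24 h.

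The plot of log2 levels by library shows the members side by side on 1 scale. Library 26 lies above the other stimulated points of 6 h in Slfn4.

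At 24 h all 7 members were again called higher with stimulus, beside 14.6% of genes tested, with rises from 2.47-fold (Slfn3) to 42.1-fold (Slfn4). Scaled by total reads instead of the authors' sizes (own-total scaling), the count was 6 of 7, as Slfn3 was at 0.97 (adjusted p 0.00315), and with quantile normalization it was 6 of 7, as Slfn5 was at 0.98 (adjusted p 1.22e-05), both just under a fold of 2. Of the 12782 genes tested, 4716 were called with own-total scaling (30.4% of them higher) and 4170 with quantile normalization (46.6% of them higher). All 7 differences were positive under every setting tried.

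Slfn1 was at 51.4, 28.1, 33.6 and 36.8 CPM in the unstimulated libraries 44, 45, 43 and 46 and at 593, 609, 626 and 694 CPM in the stimulated libraries 56, 57, 55 and 58. Library 44 holds the highest unstimulated value, and the nearest values of the groups are 11.5 times apart. The difference was 4.11 (SE 0.16, adjusted p 2.04e-11). Slfn2 was at 504, 431, 407 and 354 CPM and at 1349, 1312, 1195 and 1267 CPM, with no overlap and a difference of 1.61 (SE 0.07, adjusted p 1.08e-10).

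Slfn3 was at 6.56, 3.56, 5.16 and 4.84 CPM without and at 9.46, 12.5, 11.8 and 15.5 CPM with stimulus at 24 h. Its groups come closest of all members, with the lowest stimulated value 1.44 times the highest unstimulated one. The difference was 2.47-fold (95% interval in log2 0.75 to 1.85, adjusted p 0.000362). Slfn4 was at 27.5, 17.3, 18.0 and 20.4 CPM and at 749, 877, 778 and 1068 CPM. Its groups stay 27.3 times apart, and its difference of 5.40 (SE 0.19, adjusted p 4.9e-12) is the largest of the family at this time.

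Slfn5 was at 225, 150, 149 and 191 CPM without and at 402, 426, 442 and 557 CPM with stimulus at 24 h. Its nearest values are 1.79 times apart, and the difference was 1.36 (SE 0.13, adjusted p 3.7e-07). Slfn8 was at 85.0, 64.5, 71.9 and 77.4 CPM and at 369, 366, 348 and 389 CPM. Its stimulated values hardly vary, the nearest values are 4.09 times apart, and the difference was 2.31 (SE 0.08, adjusted p 4.48e-12). Slfn9 was at 9.22, 9.03, 11.9 and 15.5 CPM and at 53.3, 62.8, 59.0 and 84.6 CPM, with the nearest values 3.45 times apart and a difference of 2.52 (SE 0.11, adjusted p 8.13e-11).

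Among the unstimulated libraries of 24 h, library 44 was the highest in 6 members, all but Slfn9, and among the stimulated ones library 58 was the highest in 6 members, all but Slfn2. The genotype labels of both libraries conflict. In its group of 4, library 58 held the lowest summed markers of dendritic cells (105 against 196 to 239 CPM). It was also lowest in those of neutrophils (324) and of erythroid cells and megakaryocytes (2.11) and highest in those of monocytes (11533) and B cells (4.08). Library 44 was highest in monocyte (30533), B cell (17.4) and erythroid and megakaryocyte markers (20.6). Whether these cells take part in the Schlafen levels was not tested. Slfn10-ps was at 7.40, 6.19, 5.81 and 6.01 CPM without and at 11.1, 11.8, 10.7 and 14.7 CPM with stimulus, a difference of 0.92 (adjusted p 4.87e-05) that is under a fold of 2.

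The scaled library sizes of the authors differ from the totals of reads, and by another factor in each condition. The reads on the listed genes over the scaled size were 0.756 to 0.775 without and 1.241 to 1.316 with stimulus at 6 h, and 0.776 to 0.788 and 0.970 to 0.997 at 24 h. Scaling each library to its own total therefore shifted the median of all genes by -0.73 for the stimulus at 6 h, -0.33 at 24 h, 0.37 for time with stimulus, 0.40 for the response at 24 h minus that at 6 h and -0.02 for time without stimulus. The share of called genes that were higher went from 48.1% to 21.9% at 6 h and from 43.9% to 30.4% at 24 h, from 49.0% to 69.3% for time with stimulus and from 42.1% to 67.4% for the response at 24 h minus that at 6 h. The Schlafen genes stayed positive for the stimulus at both times. With this scaling their differences at 6 h were smaller, from 1.86 in Slfn2 to 5.63 in Slfn1. The lowest value of Slfn2 at 6 h under any setting was 1.56. This scaling shifts all genes of a library by nearly the same amount, so differences taken from the median of all genes hardly change with it by construction. At 6 h they were 6.49 (Slfn1), 2.72 (Slfn2), 5.56 (Slfn3), 6.11 (Slfn4), 6.04 (Slfn5), 4.96 (Slfn8) and 5.45 (Slfn9).

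The fold change with stimulus was called lower at 24 h than at 6 h in 5 of 7 members (18.2% of genes tested were), namely Slfn1, Slfn3, Slfn5, Slfn8 and Slfn9. Both times have their own unstimulated libraries, and the values of each time stand above. In the same comparison all 10 neutrophil markers were called lower (median -2.71; 8 of 10 with own-total scaling), as were Klrd1 of NK cells (-3.84) and 3 of 4 erythroid and megakaryocyte markers (median -4.09), 2 of 3 tested of T cells (median -2.21), 3 of 5 of dendritic cells (median -1.19; 2 with own-total scaling) and 5 of 10 of monocytes (median -1.03; 4 with own-total scaling), of which 1 other was called higher. The part of these cells in the Schlafen responses was not tested.

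Slfn5 had the largest difference between the responses, -4.55 (SE 0.19, adjusted p 3.34e-10), going from 60.2-fold at 6 h to 2.57-fold at 24 h. Slfn3 followed at -4.13 (SE 0.36, adjusted p 2.74e-07), from 43.2-fold to 2.47-fold. Slfn9 was at -2.80 (SE 0.16, adjusted p 4.88e-09), Slfn8 at -2.52 (SE 0.11, adjusted p 5.76e-10) and Slfn1 at -2.25 (SE 0.23, adjusted p 1.1e-06), and Slfn10-ps was at -2.47 (adjusted p 1.55e-07). All 3 long members are thus in this group, with the intermediate Slfn3 and the short Slfn1.

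Slfn2 was at -0.99 (SE 0.10, adjusted p 1.62e-06), just under a fold of 2. Slfn2 was called when library 2 (-1.03), 10 (-1.05), 11 (-1.01), 45 (-1.04), 46 (-1.04) or 58 (-1.01) was left out. Slfn4 was at -0.59 (SE 0.26, adjusted p 0.0631), and its response was 63.1-fold at 6 h and 42.1-fold at 24 h. Leaving out 1 library in turn gave -0.79 to -0.38 for Slfn4, with -0.38 without library 26. Whether its adjusted p is under 0.05 depends on the setting, while its difference stayed under a fold of 2 in every setting. With own-total scaling Slfn2 was at -0.59 and Slfn4 at -0.19, and the same 5 members were called. Of the 12782 genes tested, 4805 were then called, 67.4% of them higher.

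**Figure D2:**
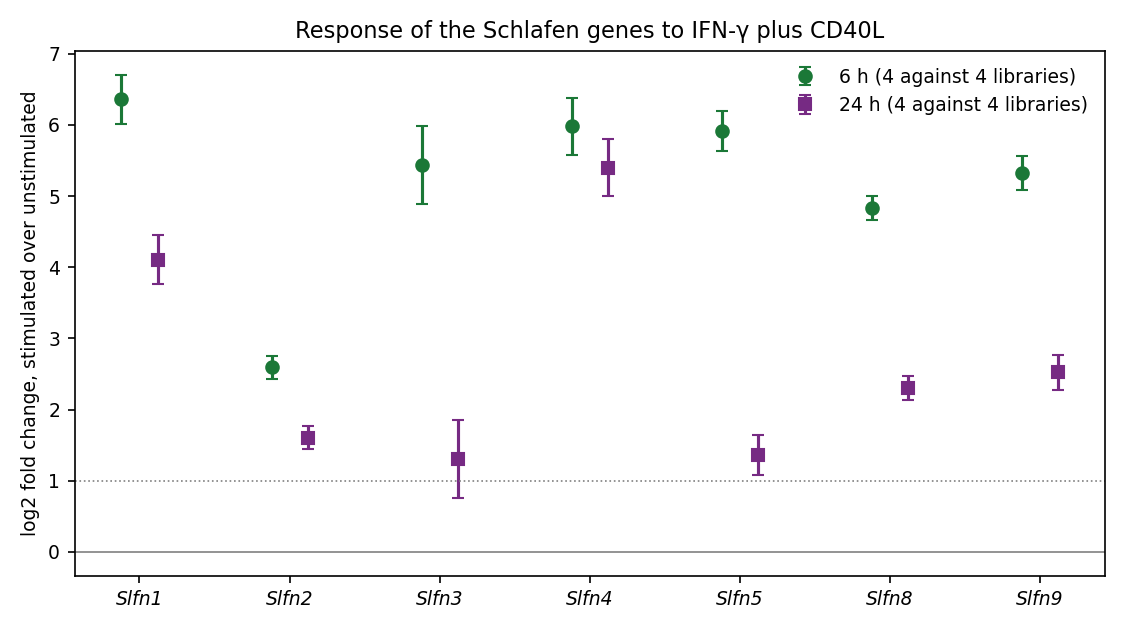
Log2 fold change of each Schlafen gene, stimulated over unstimulated, at 6 h and at 24 h, with 95% intervals from limma and 4 libraries on each side. The dotted line marks a fold of 2, and Slfn4 is the member whose values at the 2 times lie closest, at 5.98 and 5.40.

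In the plot of both responses the interval of each 24 h value lies below that of its 6 h value in 6 of 7 members, and the intervals of Slfn4 overlap. At 24 h the lower end for Slfn3 (0.75) is under the line of a fold of 2, while that for Slfn5 (1.08) is above it.

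The unstimulated levels differed between the times as well. Without stimulus, Slfn1, Slfn3 and Slfn5 were called higher at 24 h than at 6 h, 3 of 7 members beside 13.2% of genes tested. Slfn5 rose by 2.39 (SE 0.13, adjusted p 2.66e-09), from a mean of 33.9 to 179 CPM, Slfn1 by 1.61 (SE 0.16, adjusted p 1.1e-06), from 12.1 to 37.5 CPM, and Slfn3 by 1.49 (SE 0.26, adjusted p 0.000162), from 1.85 to 5.03 CPM.

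In these 3 genes and in Slfn4 (0.61, adjusted p 0.0104) and Slfn8 (0.75, adjusted p 1.67e-06) each library of 24 h was above each of 6 h. Such splits were not counted over all genes. In limma 8624 of the 12782 genes tested were at an unadjusted p under 0.05 in this comparison. The groups overlap in Slfn2, at 0.30 (adjusted p 0.00279), and in Slfn9, at -0.10 (adjusted p 0.439). In the same libraries the summed neutrophil markers (10 of 10 measured, Csf3r the most abundant, 8 called higher) went from 324 to 405 CPM at 6 h to 878 to 1228 CPM at 24 h, and those of dendritic cells (5 of 5, Flt3 the most abundant, 3 called higher and Xcr1 lower) from 33.6 to 42.3 CPM to 115 to 200 CPM. Also called higher were 2 of 3 tested T cell markers (median 2.36), Cd79b of B cells (1.63) and Pf4 of megakaryocytes (3.65). Of the 2 B cell markers tested the other was negative. All 4 erythroid and megakaryocyte markers tested were positive, with Pf4 the 1 called. Pf4 was at 0.0218 to 0.267 CPM at 6 h, so its fold change depends on the count added before the logarithm. Of 10 monocyte markers 2 were called higher and 1 lower. The part of these cells in the Schlafen levels was not tested.

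With stimulus, 4 members were called lower at 24 h than at 6 h, beside 17.2% of genes tested. They were Slfn9 (-2.90, SE 0.11, adjusted p 3.82e-11), Slfn3 (-2.64, SE 0.26, adjusted p 3.69e-07), Slfn5 (-2.16, SE 0.13, adjusted p 2.91e-09) and Slfn8 (-1.77, SE 0.08, adjusted p 1.27e-10). Slfn1 (-0.64, adjusted p 0.00246) and Slfn2 (-0.69, adjusted p 1.05e-06) were under a fold of 2, although in both each stimulated library of 24 h lay below each of 6 h. Such splits were not counted over all genes, of which 9923 of 12782 were at an unadjusted p under 0.05 in limma. In the same comparison 3 of 4 erythroid and megakaryocyte markers (median -2.97), Klrd1 (-3.64), 5 of 10 monocyte markers (median -0.70; 2 with own-total scaling) and 3 of 10 neutrophil markers (median -0.42; 2 with own-total scaling) were called lower. Of the markers of T cells, B cells and dendritic cells 1 each was called lower and 1 each higher. The part of these cells in the Schlafen levels was not tested.

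Slfn4 was at 0.03 (adjusted p 0.902), its groups overlap, and it was at 0.23 without library 26. Its direction depends on the library left out (-0.18 to 0.23). With own-total scaling it was at 0.40 (adjusted p 0.0509), Slfn1 at -0.27 (0.129) and Slfn2 at -0.32 (0.000576), and the same 4 members were called lower. Of all genes tested 4890 were then called, 69.3% of them higher. With no minimum fold change and the authors' scaling, 6 of 7 were called lower, all but Slfn4. Beside them 9763 of the 12782 genes tested were called in either direction. The comparisons of time share their stimulated libraries with those of the stimulus.

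Levels can be compared between genes per kb of exon, by the lengths of GENCODE vM21. Without stimulus at 6 h, Slfn2 was at 206 CPM per kb (SD 16.6, n = 4), followed by Slfn8 (10.8), Slfn1 (6.52), Slfn5 (5.36), Slfn4 (3.42), Slfn9 (2.01) and Slfn3 (0.542). In this order Slfn1 and Slfn5 overlap between libraries, and the other neighbours do not. Slfn2 is thus far above the rest of the family in unstimulated monocytes.

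With stimulus at 6 h the order was Slfn2 (1242), Slfn1 (528), Slfn5 (321), Slfn8 (308), Slfn4 (220), Slfn9 (80.4) and Slfn3 (22.2 CPM per kb). Here Slfn5 overlaps with Slfn8, and Slfn8 with Slfn4. At 24 h without stimulus it was Slfn2 (255), Slfn5 (28.3), Slfn1 (20.1), Slfn8 (18.3), Slfn4 (5.24), Slfn9 (1.91) and Slfn3 (1.47). Slfn5, Slfn1 and Slfn8 overlap in turn, and so do the values of Slfn9, Slfn10-ps (1.75) and Slfn3.

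With stimulus at 24 h Slfn2 (770) and Slfn1 (338) were followed by Slfn4 (219), which then stood above the long members Slfn8 (89.9), Slfn5 (72.2) and Slfn9 (10.9), with Slfn3 (3.61 CPM per kb) last. Slfn8 and Slfn5 overlap, and Slfn3 overlaps with Slfn10-ps (3.33). Slfn2 was first and Slfn3 the last of the 7 members in all 4 conditions.

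**Figure D3:**
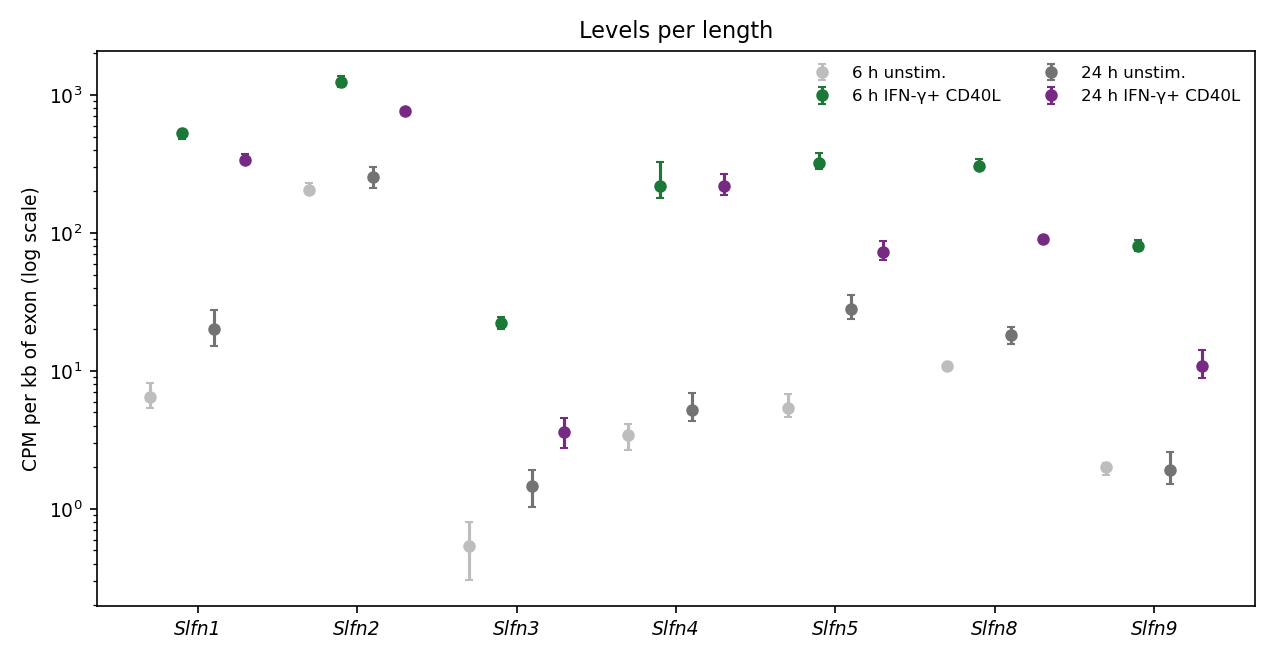
Mean level of each Schlafen gene in CPM per kb of exon on a log axis, in the 4 conditions, with bars from the lowest to the highest of 4 libraries. Slfn2 is the highest member in each condition, and Slfn4 has nearly the same level with stimulus at both times (220 and 219).

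The plot of levels per length shows the make-up of the family in each condition. Of the summed CPM per kb of the 7 members, the short members held 90.5% without and 65.1% with stimulus at 6 h, and 83.2% and 73.8% at 24 h (means of 4 libraries). The intermediate members held 1.69%, 8.79%, 2.03% and 14.7% in the same order. The long members went from 7.77% to 26.1% at 6 h and from 14.8% to 11.5% at 24 h. The summed level of the 7 members was 428 to 493 CPM without and 7222 to 9022 CPM with stimulus at 6 h, and 697 to 909 and 3459 to 4075 CPM at 24 h.

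Between genotypes no Schlafen gene was called by limma at either time or under either treatment. At 6 h without stimulus the count was 0 of 7 (0.0861% of genes tested, 11 in number), and none of the 7 was at an unadjusted p under 0.05, where 1289 of all genes were. The differences, NFAM1-/- minus NFAM1+/+, ran from -0.31 in Slfn5 (adjusted p 0.648) to 0.13 in Slfn1 (adjusted p 0.928), and the libraries of the genotypes overlap in Slfn1, Slfn3, Slfn4 and Slfn9. With so few libraries a group, values can fail to overlap by chance, and such splits were not counted over all genes.

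At 6 h with stimulus limma called 0 of 7, and 0.0% of all genes (1862 at an unadjusted p under 0.05, none of them a member; voom weights also gave 0 genes, and quantile normalization gave 4). The largest difference was that of Slfn4, -0.42 (95% interval -0.99 to 0.15, adjusted p 0.488). It was -0.01 without library 26, the library in which Slfn4 is high. Leaving out each library in turn gave -0.83 to -0.01.

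At 24 h without stimulus limma called 0 of 7 by title (0.289% of genes tested), with 2 of 7 at an unadjusted p under 0.05, as against 1397 of all genes. Slfn9 was at 9.22 and 9.03 CPM in libraries 44 and 45 and at 11.9 and 15.5 CPM in libraries 43 and 46. The title groups do not overlap, and the difference was 0.57 (95% interval 0.23 to 0.91, adjusted p 0.145). By tag it was -0.18, and on the 2 libraries whose labels match it was 0.39. Slfn2 was at -0.30 (adjusted p 0.284) by title and at 0.21 by tag.

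At 24 h with stimulus limma called 0 of 7 by title (0.579% of genes tested; none of the 7 and 1988 of all genes at an unadjusted p under 0.05). The largest difference, 0.31 in Slfn3, had a 95% interval from -0.47 to 1.09 (adjusted p 0.775), and by tag it was -0.40. The response to stimulus at 6 h did not differ by a called amount between genotypes in any member: 0 of 7 by limma, 0.0% of all genes, none of the 7 and 1090 of all genes at an unadjusted p under 0.05, and 0 genes with voom weights. Its largest value was -0.27 in Slfn9 (95% interval -0.75 to 0.22, adjusted p 0.743).

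**Figure D4:**
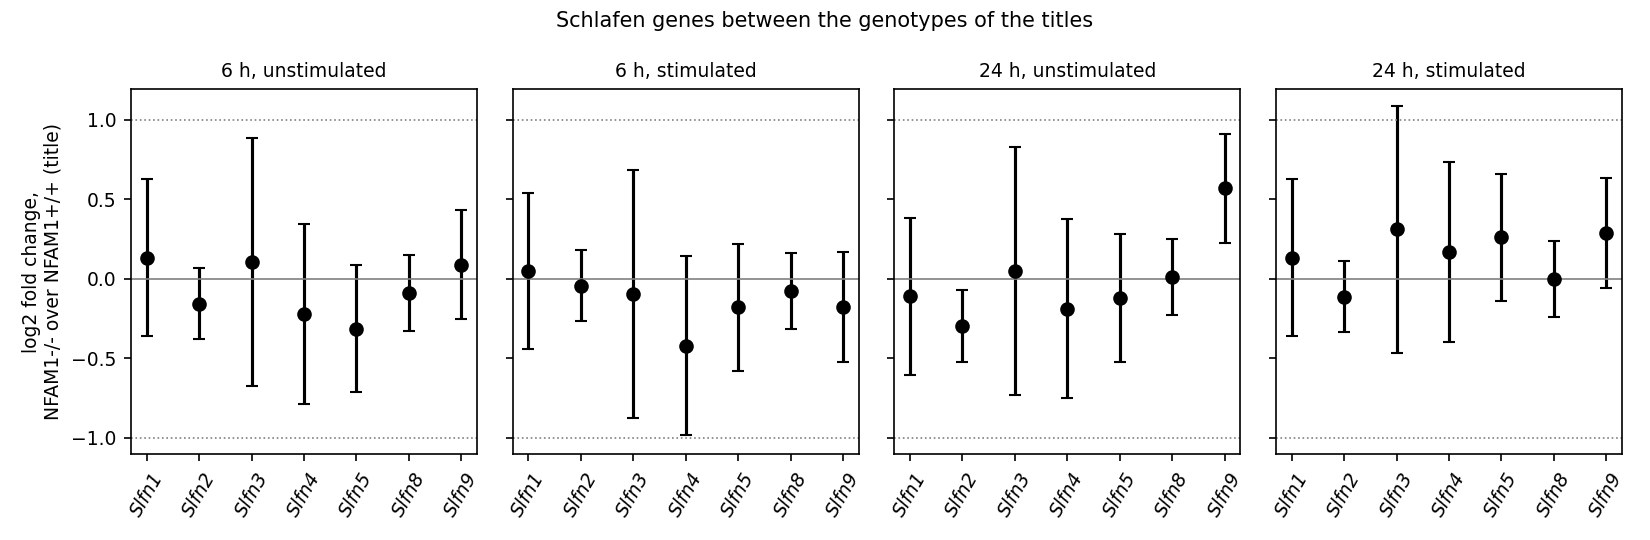
Log2 fold change of each Schlafen gene between the genotypes of the titles (NFAM1-/- over NFAM1+/+, 2 libraries against 2), with 95% intervals from limma and dotted lines at a fold of 2 in either direction. Of the 28 intervals, 26 include 0, and those of Slfn2 and Slfn9 at 24 h without stimulus do not.

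The plot of genotype differences shows how wide the intervals are with 2 libraries a group. Those of Slfn8 span -0.33 to 0.25 over the 4 comparisons, while those of Slfn3 reach from -0.87 to 1.09, so that a difference of 2-fold in Slfn3 is inside its interval at 24 h with stimulus.

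The genes through which interferon and CD40 act were measured in the same libraries. Of 18 genes of interferon receptors and signalling, the stimulus at 6 h called 12 higher and 1 lower (median 2.79, all genes -0.13), and at 24 h 12 higher and 2 lower. With own-total scaling the counts were 12 higher and 3 lower at 6 h and 11 higher and 3 lower at 24 h. The calls of single genes that follow use the authors' scaling. The transcription factors that act on interferon targets rose, with Stat2 at 4.75 and Irf9 at 1.87 at 6 h, as did the inhibitors Socs1 (9.43) and Usp18 (7.75). Ifngr1, a chain of the IFN-γ receptor, fell by 2.38 at 6 h, from a mean of 422 to 81.1 CPM, and by 1.84 at 24 h. Ifngr2 was at -0.56 and Ifnar2 at -0.05 at 6 h, neither called, and Ifnar1 at -0.80 (not called) and then -1.41 at 24 h (called).

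Of the interferon ligands, 1 of 8 was measured. Ifnb1 was at a mean of 0.0799 CPM without and 56.0 CPM with stimulus at 6 h, and at 0.0988 and 1.63 CPM at 24 h, and was called higher at both times. The 6 h unstimulated level is close to no reads, so its fold change depends on the count added before the logarithm.

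The members can be set beside lists of other targets. All 31 antiviral interferon-stimulated genes were called higher at 6 h (median 6.37, against 5.43 of the Schlafen members), led by Ifit2 (9.02) and Ifi44 (8.62), and 30 of 31 at 24 h (median 3.49, against 2.31). With own-total scaling these counts were 30 and 29. All 23 IFN-γ response genes were called higher at both times (medians 8.41 and 6.12), led by Nos2 (12.57) and Cxcl9 (11.12). Of 20 CD40 and NF-kB response genes, 16 were called higher at 6 h and 17 at 24 h (medians 2.07 and 2.36), with Il12b at 8.09, and 12 and 17 with own-total scaling.

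In the response at 24 h minus that at 6 h, 29 of 31 antiviral genes were called lower (median -2.32), 17 of 23 IFN-γ response genes (median -1.37) and 4 of 20 CD40 and NF-kB genes, with 4 called higher (median 0.23). The 5 of 7 Schlafen members called lower had a median of -2.52 over all 7, and the median of all genes was 0.04. With own-total scaling the counts were 27, 11 and 1 lower (10 of the CD40 and NF-kB genes were then called higher) and 5 of 7 members.

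The lists tied to what Schlafen proteins are known for had calls in both directions, beside 19.1% of all genes called higher and 20.6% lower at 6 h, and 14.6% and 18.7% at 24 h. Of 16 measured genes of tRNA cleavage and ribosome stress (18 on the list), 5 were called higher and 2 lower at 6 h (median 0.41). Those called higher include Gtpbp2 (2.34) and the RNA-sensing kinase Eif2ak2 (4.72), which is also on the antiviral list. Those called lower were the ribosome rescue factor Pelo (-1.94) and the ribonuclease Ang (-1.27, adjusted p 0.0279). With own-total scaling, which lowers all genes alike, 2 of the 16 were called higher and 5 lower (median -0.32, all genes -0.86). The sign of the median thus turns while it stays above that of all genes. At 24 h 3 were called higher and 2 lower under both scalings.

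Of 24 genes of the cell cycle and quiescence, 5 were called higher and 7 lower at 6 h (median -0.28) and 5 higher and 4 lower at 24 h (median -0.35). The D-type cyclins Ccnd1 (6.15) and Ccnd2 (adjusted p 6.95e-14) rose, the quiescence factor Klf2 fell by 2.16, and the mitotic cyclin Ccnb1 fell by 1.81. With own-total scaling the counts were 4 higher and 12 lower at 6 h (median -1.01, all genes -0.86) and 4 higher and 8 lower at 24 h (median -0.69, all genes -0.33), where 7125 of all 12782 genes were called at 6 h, 21.9% of them higher, and 4716 at 24 h, 30.4% of them higher.

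Markers of other cell types were low beside those of monocytes. The summed neutrophil markers were 308 to 501 CPM with stimulus at 6 h (Ly6g, at 1.09, was the 1 of 10 called, and was at 0.36 and not called with own-total scaling) and 324 to 377 CPM at 24 h, where 9 of 10 were called lower with stimulus (median -2.07). Of T cell markers 4 of 8 were measured (Cd3e, Cd3d, Cd3g and Cd8b1 were not analysed here), at 1.04 to 7.99 CPM in sum over all libraries. Of the 3 tested, Lck (5.81) and Cd8a (1.93) were called higher at 6 h, Cd8a not with own-total scaling (adjusted p 0.06). Cd4 went the other way, from 0.457 to 0.784 CPM without to 0.285 to 0.41 CPM with stimulus. With own-total scaling 1 of the 3 was called lower. Lck was at 0.00443 to 0.329 CPM without stimulus, so its fold change depends on the count added before the logarithm. Of B cell markers 2 of 6 were measured, at 1.04 to 17.4 CPM, with Cd79b called lower (-2.45). Of NK cell markers only Klrd1 of 5 was measured (not Ncr1, Klrb1c, Gzma or Prf1), at 0.300 to 21.0 CPM and called lower at 6 h (-1.73).

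Dendritic cell markers stood at 35.5 to 96.1 CPM with stimulus at 6 h and 105 to 239 CPM at 24 h, where Ccr7, a homing receptor that activated cells also express, was the most abundant. At 6 h Ccr7 (2.68) and Xcr1 (2.31) were among the 3 of 5 called higher, and Flt3 (-2.76) was called lower. Erythroid and megakaryocyte markers, 4 of 6 measured, summed to 2.11 to 37.3 CPM, with Hba-a1 called higher at 6 h (1.38, adjusted p 0.0344), but not with own-total scaling (0.65, adjusted p 0.273). At 24 h 3 of these 4 were called lower with stimulus (median -2.91), and so was Klrd1 (-5.57). The part of any of these cells in the Schlafen differences was not tested.

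The genes around the cluster had other values than its members. Before Slfn5 lie Rffl, Rad51d and Nle1, at 0.61, -0.32 and -1.73 for the stimulus at 6 h, of which Nle1 was called lower. After Slfn3 lie AI662270, Gm11427 and AA465934, at 0.71, 1.17 and -0.09, of which Gm11427 was called higher, though not with own-total scaling (0.44), where Rad51d was called lower (-1.06). Inside the cluster Gm11425 was at 2.03 (called) at 6 h and -0.22 at 24 h, and Mir7679 was below the filter. The Schlafen genes, at 2.59 to 6.36, were above all of these neighbours.

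Related genes can share reads. Of the stretches of 101 nt in the transcripts of each gene, the share also found in another gene's transcripts was 0% for Slfn1, 0.0639% for Slfn2, 2.87% for Slfn3, 0.222% for Slfn4, 6.36% for Slfn5, 3.27% for Slfn8 and 3.64% for Slfn9. For Slfn8 and Slfn9 most of it lies in Slfn10-ps (2.36% and 2.99%), and Slfn8 shares 1.10% with Slfn9. Slfn10-ps has the largest share of these genes, 7.7%, with 5.06% in Slfn9 and 2.87% in Slfn8. With stimulus at 6 h it was at a mean of 34.9 CPM, beside 1258 CPM of Slfn8 and 479 CPM of Slfn9. The part of shared reads in the level and differences of Slfn10-ps was not tested. For Slfn5 most of it lies in Slfn5os (6.15%), a transcript on the other strand that was not analysed here, and for Slfn3 in Gm11427 (2.72%). The library kept no strand, so reads of overlapping genes on opposite strands, such as Slfn5 and Slfn5os or Slfn2 and Gm20234, cannot be told apart.

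Over the 16 libraries, the genes whose centred log2 CPM was nearest to each member's were found by the root mean square difference over 12782 genes. Slfn1 was nearest to Oas3 (0.20), Nlrc5 (0.21) and Irf7 (0.25), and Slfn2 to Zc3hav1 (0.15), Rhbdf2 (0.17) and Slc15a3 (0.18). Slfn3 was nearest to Slc25a22 (0.34), Rcn1 (0.44) and Nectin4 (0.45), and Slfn4 to Irf1 (0.34), Slco3a1 (0.35) and Ifit1bl1 (0.39). Oas3 makes a signal that activates RNase L, Irf7 and Irf1 are interferon-linked transcription factors, and Zc3hav1 binds viral RNA.

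Among the long members, Slfn5 was nearest to Ccnd1 (0.41), Ddx58 (0.41) and Dhx58 (0.43), the last being sensors of viral RNA. Slfn8 was nearest to Tpst1 (0.10), Ifi204 (0.16) and Znfx1 (0.18), and Slfn9 to Klrk1 (0.36), Ifi209 (0.44) and Eif2ak2 (0.45). No member had another member among its 3 nearest genes. Within the family the closest pair was Slfn3 and Slfn5 (0.46), then Slfn3 and Slfn8 (0.50), Slfn1 and Slfn4 (0.52) and Slfn8 and Slfn9 (0.57), and the widest was Slfn2 and Slfn4 (1.83). Closeness by this measure crosses the subgroups of length, since Slfn3 lies nearer to Slfn5 and Slfn8 than to Slfn4.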

How the data were processed

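The deposited values are log2 CPM (log2 read counts relative to a scaled library size) by the authors, who used FastQC, STAR, Rsubread, edgeR and limma (no versions stated). From them 100% of the entries could be turned back into whole reads within 0.01, which gave 48295939 to 88514341 reads per library, so that 1 read is 0.00870 to 0.0197 CPM. A gene was tested if it reached 1 CPM in 2 or more of the 16 libraries, which kept 12782 and left out 303.

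A model with 8 groups by title (8 residual degrees of freedom) was fitted to the log2 values with limma 3.58.1 and statmod 1.5.0 in R 4.3.3, with a mean-variance trend. A call needed both a 2-fold change or more and an adjusted p (Benjamini-Hochberg, over all genes tested) under 0.05. The code was tested on simulated data.

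The members and the lists were chosen with earlier results of these data known. The lists were interferon receptors and signalling, interferon ligands, antiviral interferon-stimulated genes, interferon-gamma response genes, CD40 and NF-kB response genes, tRNA cleavage and ribosome stress, cell cycle and quiescence, and markers of monocytes, neutrophils, T, B and NK cells, dendritic cells, and erythroid cells and megakaryocytes. Genes were named by rule: the Slfn entries, Nfam1 and pathway genes, the 2 called genes of each list with the largest rise and the 2 with the largest fall at 6 h, 3 neighbours on each side of the cluster, and the 3 nearest profiles of each member. Gm11425 and Mir7679, inside the cluster, were named in addition, after their values were seen.

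Alternatives were another filter (none, or a mean of at least 5 CPM), quantile normalization, scaling by total reads, only the 8 libraries of 1 time, no trend, robust estimation, voom weights, no minimum fold change, leaving out each library, 1 genotype alone, the genotype tag, and only libraries whose labels match. Gene lengths and order come from GENCODE vM21, the promoter windows from RefSeq. Of the entries, 17 have a date in place of a symbol and were not assigned to a gene.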

Additional observations from a re-analysis of the deposited data

Results flagged for a closer look

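In the 4 stimulated libraries of 6 h, Slfn4 in library 26 (1298 CPM) lies far from the other 3 (704 to 756 CPM). The gap to the nearest of them is 0.883 of the whole range in log2 CPM, above Dixon's 95% critical value for 4 libraries. Chance sets a library apart in about 1 in 20 such groups, and 1 of the 32 sets of 4 libraries examined (8 genes, 4 conditions) held one. Library 26 also held the highest summed markers of dendritic cells, of erythroid cells and megakaryocytes and of neutrophils among these 4 libraries, and the lowest of monocytes, and their part was not tested.

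The response to stimulus differed between 24 h and 6 h, by the test of the difference itself in limma, in 6 of 7 members and in the pseudogene. The values, 24 h minus 6 h, were -2.25 in Slfn1, -0.99 in Slfn2, -4.13 in Slfn3, -4.55 in Slfn5, -2.52 in Slfn8, -2.80 in Slfn9 and -2.47 in Slfn10-ps. Slfn2 is listed by its adjusted p alone, since its difference is under a fold of 2. By adjusted p alone 8588 of the 12782 genes tested passed in either direction. Slfn4, at -0.59, did not pass the test in the main fit (adjusted p 0.0631), and whether it passes by adjusted p depends on the setting.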

How the results depend on the processing

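Of 4533 values recomputed under 30 settings, 4355 kept their direction and their side of the thresholds, 33 were weaker, 27 stronger, 65 reversed and 53 moved. The Schlafen counts were 7 of 7 in all 27 settings for the stimulus at 6 h, 6 or 7 at 24 h, and 0 for the genotype comparisons in every setting. Lone libraries left in a group by the leave-one-out fits, or at 24 h by keeping those whose labels match (43 against 45 and 55 against 57), are assumed to vary like the other groups. No paired analysis was possible because the groups share no replicate numbers. Slfn3, with 64 reads at the lowest, has the least depth of the members.

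With a mean of at least 5 CPM, which tests fewer genes, the genes called were 3275 (5069 without it) for the stimulus at 6 h, 2554 (4256) at 24 h, 1446 (2684) for time without stimulus, 2746 (4308) for time with stimulus, 2658 (4024) for the response at 24 h minus that at 6 h and 5 (11) for genotype at 6 h without stimulus. With no minimum fold change they were 10003, 9564, 8233, 9763, 8588 and 20 in that order, and 122 and 269 for genotype at 24 h without and with stimulus, and the Schlafen members called for time without stimulus were 6 in place of 3 and for time with stimulus 6 in place of 4. These counts follow from the thresholds.

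For genotype at 6 h with stimulus, quantile normalization gave 4 genes and the 8 libraries of that time alone 4, in place of 0. For genotype at 24 h without stimulus (37 genes), no trend gave 14, the tag 2 and the libraries whose labels match 4, at 1 library a group. With stimulus (74 genes), the 8 libraries of that time alone gave 0, no trend 5, the tag 3 and the matching libraries 14, again at 1 a group, so neither count rests on replicates of its own. The cause was not tested.

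Leaving out 1 library in turn gave 1 to 40 genes for genotype at 6 h without stimulus (40 without library 1, 31 without library 2, 1 without library 4, 6 without library 11, and 5 without library 12, 56 or 57), 0 to 126 with stimulus (126 without library 10, 11 without library 12, 3 without library 11, 1 without library 26), 7 to 64 at 24 h without stimulus (64 without library 43, 7 without library 44, 15 without library 46) and 1 to 182 with stimulus (182 without library 55, 126 without library 57, 22 without library 56, 1 without library 58, and 46 to 49 without library 1, 3, 4, 44 or 45). The genotype difference in response at 6 h gave 0 to 55 (55 without library 10, 12 without library 1, 9 without library 2, and 2 without library 3, 11 or 12). The cause was not tested.

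By tag, genotype differences at 24 h without stimulus reversed in Slfn1 (-0.11 to 0.37), Slfn2 (-0.30 to 0.21), Slfn4 (-0.19 to 0.24), Slfn5 (-0.12 to 0.11), Slfn9 (0.57 to -0.18), Slfn10-ps (-0.20 to 0.10) and Nfam1 (-0.20 to 0.04). With stimulus they reversed in Slfn1 (0.13 to -0.09), Slfn3 (0.31 to -0.40), Slfn4 (0.17 to -0.34), Slfn5 (0.26 to -0.21), Slfn8 (0.00 to -0.07), Slfn9 (0.29 to -0.38) and Slfn10-ps (0.13 to -0.28). On the libraries whose labels match, Slfn1 was at 0.26 and Slfn4 at 0.05 without stimulus, and Slfn3 at -0.08, Slfn4 at -0.17, Slfn8 at -0.07, Slfn9 at -0.09 and Slfn10-ps at -0.15 with it. All these adjusted p lie from 0.999 to 1. With voom weights Slfn3 was at -0.09 for genotype at 6 h without stimulus (0.11 otherwise). For genotype at 6 h with stimulus Nfam1 (-0.01) was at 0.01 with quantile normalization and at 0.00 with scaling by total reads. Cd8a was at -0.45 for the stimulus at 24 h in NFAM1-/- alone (0.42 in both). The cause was not tested.

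Leaving out 1 library in turn also turned values that limma did not call. For the stimulus at 6 h Ifnar2 ran from -0.10 to 0.00, and for time with stimulus Slfn4 from -0.18 to 0.23. For genotype at 6 h without stimulus the ranges were -0.15 to 0.42 (Slfn1), -0.59 to 0.81 (Slfn3), -0.45 to 0.00 (Slfn4) and -0.06 to 0.24 (Slfn9), and with stimulus -0.05 to 0.15 (Slfn1), -0.17 to 0.08 (Slfn2), -0.20 to 0.01 (Slfn3), -0.19 to 0.04 (Slfn8) and -0.05 to 0.04 (Nfam1). At 24 h without stimulus they were -0.55 to 0.33 (Slfn1), -0.39 to 0.49 (Slfn3), -0.52 to 0.15 (Slfn4), -0.41 to 0.17 (Slfn5) and -0.19 to 0.21 (Slfn8), and with stimulus -0.06 to 0.40 (Slfn4), -0.08 to 0.08 (Slfn8) and -0.10 to 0.36 (Slfn10-ps). For the genotype difference in response at 6 h they were -0.37 to 0.20 (Slfn1), -0.01 to 0.24 (Slfn2), -0.90 to 0.50 (Slfn3), -0.61 to 0.21 (Slfn4), -0.07 to 0.33 (Slfn5), -0.10 to 0.13 (Slfn8) and -0.51 to 0.08 (Slfn10-ps). The search of the bases before each start alone found the response element in the same 3 members.

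The counts of the CD40 and NF-kB response genes by tag were chosen after seeing the data and are not among the values counted above. At 24 h without stimulus 19 of 20 were negative by title and 3 by tag (medians -0.44 and 0.15), and with stimulus 13 by either label.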
